A study of Mus musculus with 11 samples.

Results

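Inhibitory receptors of myeloid cells were examined in gonadal white adipose tissue of mice that lacked 14-3-3ζ, a scaffold protein encoded by Ywhaz. The 10 receptor genes were chosen by name (Pirb, Lilrb4, Sirpa, Siglec1, Cd33, Pilra, Cd200r1, Lair1, Havcr2 and Vsig4) and looked up by symbol among 42815 loci with 1 FPKM value per genotype. FPKM express the sequenced fragments of a gene relative to transcript length and to all fragments mapped in that library. Of these genes, 9 were found by their symbol, and Pirb was found under Lilrb3, a synonym in RefSeq. The tissue came from male C57Bl/6 mice at 50 weeks of age, 5 14-3-3ζKO and 6 wild type, all singly housed. The deletion of Ywhaz was present in the whole body, and the study used littermates as controls. Standard chow is named in the labels and a low-fat diet in the study's account of this tissue, and which applied to these animals cannot be told from the sources used here. Values per library were analysed for 86 loci, among them those of Lair1, Cd200r1, Siglec1 and Pirb.

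Receptors of this kind set a threshold on the activation of macrophages, dendritic cells, mast cells and other leukocytes. Many carry tyrosine-based inhibitory motifs (ITIMs) in the cytoplasmic tail, which are phosphorylated by Src family kinases and then recruit the phosphatases SHP-1 (Ptpn6), SHP-2 (Ptpn11) or SHIP-1 (Inpp5d). Pirb, Lilrb4, Sirpa, Pilra and Lair1 are of this class, and several of them have a close relative without the motif that signals for activation through the adaptor Tyrobp or Fcer1g. Cd200r1 lacks an ITIM and acts through the adaptors Dok1 and Dok2 and the Ras GTPase-activating protein Rasa1. Siglec1 is a sialic acid-binding adhesion receptor of macrophages that also lacks an ITIM, and Vsig4 is a complement receptor of resident macrophages. In fat, macrophages are major leukocytes and accumulate in obesity.

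Myeloid genes are commonly bound by the factor PU.1 at purine-rich sites with a GAGGAA core, so the sequence before the start of each receptor gene was searched for these letters on both strands. The promoter table (RefSeq, build GRCm38.p6) held 6 of the 10 genes, Pilra, Pirb, Lair1, Cd33, Havcr2 and Vsig4. The letters were present in the 250 bases before the start in 6 of 6, against 23.3% of all 32851 promoters, which is a description of sequence and not of binding. Lair1 and Pirb are shown because they have values per library below, and Vsig4 because both its occurrences lie on the strand of the gene. The Lair1 sequence is chr7:4063205-4063454 on the minus strand, with 1 occurrence, on the opposite strand, at position -26 from the annotated start. The Pirb sequence is chr7:3720383-3720632 on the minus strand, with occurrences at -185, -120 and -87, the last on the opposite strand. The Vsig4 sequence is chrX:96293439-96293688 on the minus strand, with occurrences at -155 and -53. Capitals mark GAGGAA or its reverse complement TTCCTC, and each sequence runs 5′ to 3′ and ends at the last base before the start.
Lair1: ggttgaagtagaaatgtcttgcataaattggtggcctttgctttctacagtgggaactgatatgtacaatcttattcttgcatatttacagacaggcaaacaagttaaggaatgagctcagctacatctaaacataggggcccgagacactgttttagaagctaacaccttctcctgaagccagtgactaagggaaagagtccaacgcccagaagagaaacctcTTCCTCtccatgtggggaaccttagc
Pirb: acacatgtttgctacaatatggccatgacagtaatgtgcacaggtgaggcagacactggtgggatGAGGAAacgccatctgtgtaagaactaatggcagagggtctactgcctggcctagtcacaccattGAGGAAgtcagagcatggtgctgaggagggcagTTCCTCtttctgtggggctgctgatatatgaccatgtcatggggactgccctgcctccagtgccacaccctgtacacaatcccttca
Vsig4: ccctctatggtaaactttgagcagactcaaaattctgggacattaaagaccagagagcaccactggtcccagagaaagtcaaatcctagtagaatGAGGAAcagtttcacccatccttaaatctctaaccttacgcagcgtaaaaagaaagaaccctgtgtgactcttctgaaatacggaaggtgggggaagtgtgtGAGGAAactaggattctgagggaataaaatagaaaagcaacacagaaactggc

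Ywhaz stood at 14.5 to 38.2 FPKM in 14-3-3ζKO libraries and 94.2 to 118.3 FPKM in wild-type libraries, without overlap, in keeping with the labels. Adipocyte transcripts were abundant in both genotypes, with Adipoq at 1607 FPKM in 14-3-3ζKO and 1474 FPKM in wild-type tissue. Epididymal transcripts were present as well, with Lcn5 at 2141 FPKM in 14-3-3ζKO and 2737 FPKM in wild-type tissue. Wild-type replicates 1, 3 and 4 stood apart from the other libraries. In 64 of the 86 loci with values per library (74.4%) each of these 3 libraries exceeded all 8 others. The differences and tests of the receptors with values per library are given below with and without them. For the other tested genes named below, the 14-3-3ζKO share of the wild-type mean is given without them, but the test is not. The ratios to macrophage markers are also listed for the other wild-type libraries. Group values cannot be given without these 3 libraries. The depth of each library is unknown. Samples are numbered in the labels with no animal named for each, so the p-values below measure the spread between samples, which may be technical.

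Every receptor found by symbol was lower in 14-3-3ζKO fat. All 9 had a mean of at least 1 FPKM over the genotypes, the filter used here, and 5 of the 9 (Lilrb4, Sirpa, Siglec1, Cd200r1 and Lair1) were lower by 2-fold or more on the log2(FPKM + 1) scale. Among all 15245 loci that passed the same filter, 4.31% were lower by as much, and 46.8% were lower by any amount. The median difference was -1.72 over the 9 receptors and 0.04 over all loci. With Pirb included, 6 of 10 were lower by 2-fold or more and the median was -1.73. Together the 9 receptors summed to 78.7 FPKM in 14-3-3ζKO and 299.1 FPKM in wild-type tissue. In whole tissue, fewer cells of a type and less RNA per cell cannot be told apart. These are single values per genotype without a replicate error, so no test is attached to them. The log2 scale with 1 FPKM added understates differences of low genes, and with 0.1 FPKM added 8 of 9 were past 2-fold, against 5.94% of all loci.

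The receptors differed widely in level, which FPKM give per transcript length. Lilrb4 was the highest in both genotypes (40.5 FPKM in 14-3-3ζKO, 136 FPKM in wild-type tissue), followed by Sirpa and Pirb, and Havcr2 was the lowest (0.730 FPKM in 14-3-3ζKO, 2.06 FPKM in wild-type tissue). The order changed below these. Lair1 ranked 9th in 14-3-3ζKO and 4th in wild-type tissue, whereas Vsig4 ranked 4th in 14-3-3ζKO and 7th in wild-type tissue. The level that remained in 14-3-3ζKO tissue ran from 9.70% of the wild-type value for Lair1 to 58.4% for Cd33.

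**Figure D1:**
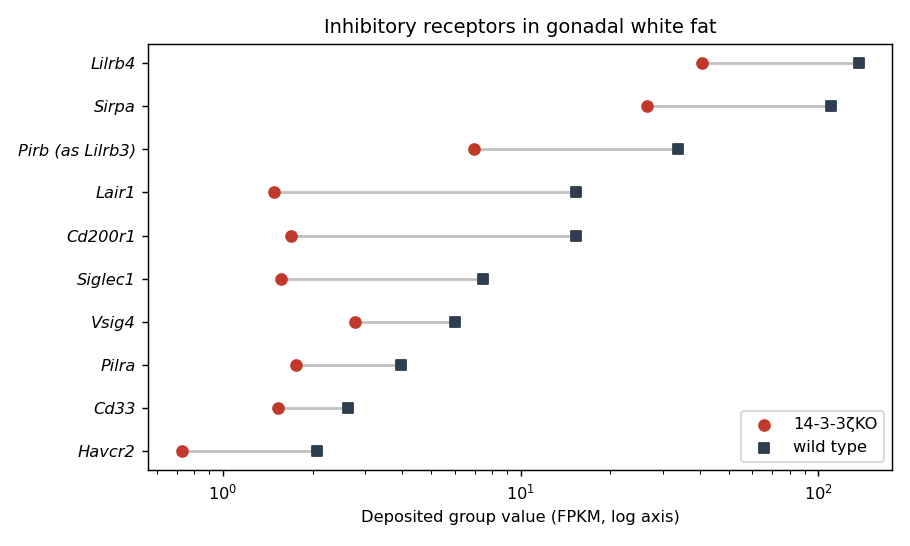
FPKM per genotype (log axis) of the 10 receptors, ordered by the wild-type value, with 1 circle for 14-3-3ζKO and 1 square for wild type, as deposited and without replicate error. In all 10 the 14-3-3ζKO circle lies left of the wild-type square, and the gap is widest for Lair1 and Cd200r1.

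Lair1, a receptor for collagens that also binds the complement protein C1q, had the lowest share of its wild-type level. Its locus lies on chromosome 7 at 3956109 to 4015849 (NCBIM37, minus strand, protein coding). Lair1 was at 0.236, 2.40, 1.53, 2.21 and 1.06 FPKM in 14-3-3ζKO replicates 1 to 5, against 20.2, 8.06, 31.6, 27.2, 1.96 and 3.03 FPKM in wild-type replicates 1 to 6. Wild-type replicates 1, 3 and 4 were far above the rest and wild-type replicate 5 lay within the 14-3-3ζKO range, so the genotypes overlapped. The means were 1.49 ± 0.880 FPKM (SD, n = 5) in 14-3-3ζKO and 15.3 ± 12.7 FPKM (SD, n = 6) in wild-type tissue. Lair1 fell by 2.27 ± 0.66 (SE) on the log2 scale (exact two-sided permutation test, p = 0.0173, Benjamini-Hochberg adjusted p = 0.0425 over the 86 loci).

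Cd200r1, the receptor through which Cd200 on other cells restrains macrophages, showed a like pattern (chromosome 16, 44765721 to 44801335, plus strand). Cd200r1 was at 0.435, 2.13, 0.565, 3.44 and 1.91 FPKM in 14-3-3ζKO replicates 1 to 5, against 27.7, 4.19, 28.2, 25.9, 4.02 and 1.92 FPKM in wild-type replicates 1 to 6. Its 3 high wild-type libraries were close to each other, and wild-type replicate 6 lay within the 14-3-3ζKO range. The means were 1.70 ± 1.24 FPKM (SD, n = 5) in 14-3-3ζKO and 15.3 ± 13.1 FPKM (SD, n = 6) in wild-type tissue. Cd200r1 fell by 2.15 ± 0.70 (SE) on the log2 scale (exact two-sided permutation test, p = 0.0281, Benjamini-Hochberg adjusted p = 0.0457).

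Siglec1, also called sialoadhesin or CD169, lies on chromosome 2 at 130893534 to 130912580 (minus strand). It was at 0.633, 2.01, 1.65, 2.53 and 1.03 FPKM in 14-3-3ζKO replicates 1 to 5, against 9.91, 3.63, 10.04, 15.2, 3.75 and 2.40 FPKM in wild-type replicates 1 to 6. As with Lair1 and Cd200r1, 1 wild-type library, here replicate 6, lay below the highest 14-3-3ζKO library. The means were 1.57 ± 0.758 FPKM (SD, n = 5) in 14-3-3ζKO and 7.50 ± 5.04 FPKM (SD, n = 6) in wild-type tissue. Siglec1 fell by 1.55 ± 0.42 (SE) on the log2 scale (exact two-sided permutation test, p = 0.00866, Benjamini-Hochberg adjusted p = 0.0407).

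Pirb, which binds MHC class I molecules, was read from the Lilrb3 row. That row also carries the symbol Gm14548, and Gm15922 as well in the values per library, so its value is not that of Lilrb3 alone. This locus (chromosome 7, 3663011 to 3849722, minus strand) is 186712 bases long and also covers Pira2, Pira5, Gm15448 and 4 pseudogenes, whereas the Lilrb3 gene ends at 3671993. The Pira genes are near-identical activating relatives of Pirb, and how reads were divided among them is uncertain. The row was at 2.70, 14.4, 2.08, 10.6 and 5.07 FPKM in 14-3-3ζKO replicates 1 to 5, against 45.8, 12.0, 67.4, 57.5, 13.9 and 5.76 FPKM in wild-type replicates 1 to 6. Here 14-3-3ζKO replicate 2 exceeded wild-type replicates 2, 5 and 6, so the overlap was the widest of the 4 receptors. The means were 6.98 ± 5.35 FPKM (SD, n = 5) in 14-3-3ζKO and 33.7 ± 26.4 FPKM (SD, n = 6) in wild-type tissue. The log2 difference of -1.93 ± 0.72 (SE) missed the threshold (exact two-sided permutation test, p = 0.0346, Benjamini-Hochberg adjusted p = 0.0505), whereas limma called it (Benjamini-Hochberg adjusted p = 0.0224).

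**Figure D2:**
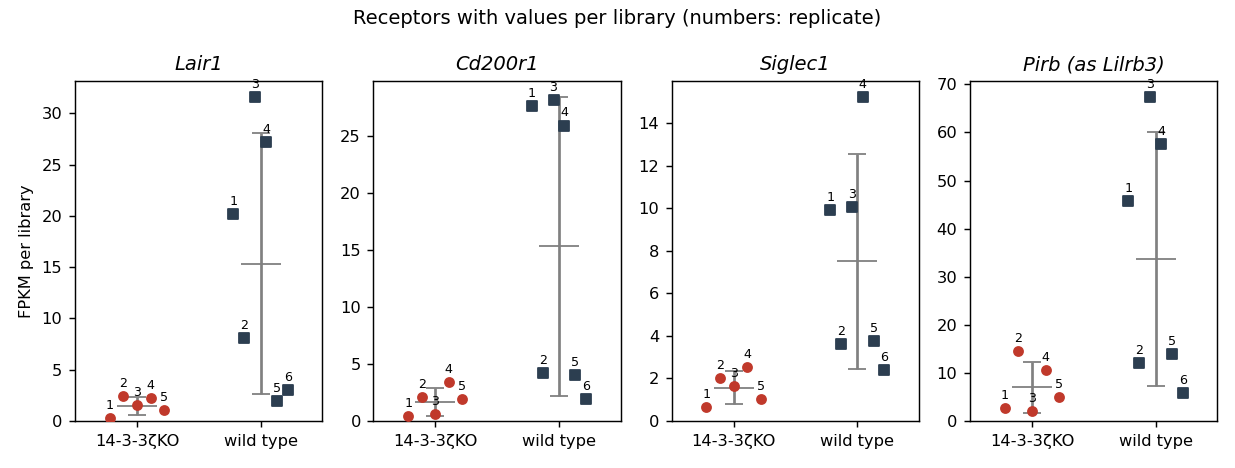
FPKM per library of Lair1, Cd200r1, Siglec1 and Pirb, with 14-3-3ζKO circles left of wild-type squares, replicate numbers beside the points, and bars for the mean ± SD (n = 5 14-3-3ζKO, n = 6 wild type). In each panel wild-type replicates 1, 3 and 4 lie above the other 8 libraries. Wild-type replicates 2, 5 and 6 lie close to or within the 14-3-3ζKO range, except replicate 2 for Lair1. It is at 8.06 FPKM, against 2.40 FPKM in the highest 14-3-3ζKO library.

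Of the receptors found by symbol that have values per library, 3 of 3 passed the test as lower. The genotypes overlapped in all 3, and in 12.8% of the 86 loci the wild-type libraries all lay above the 14-3-3ζKO libraries. Of the 86 loci 47.7% passed as lower and 17.4% as higher, and these loci had been picked by the authors from a comparison of the same libraries, so that the p-values are not independent evidence. The high wild-type libraries carried most of the signal. Wild-type replicates 1, 3 and 4 held 85.8% of the summed wild-type FPKM of Lair1, 89.0% of that of Cd200r1, 78.2% of that of Siglec1 and 84.4% of that of Pirb. Without these 3 libraries the log2 differences were -1.02 for Lair1, -0.78 for Cd200r1, -0.77 for Siglec1 and -0.73 for Pirb. The receptors were thus still lower in 14-3-3ζKO tissue, at 34.2% of the mean of wild-type replicates 2, 5 and 6 for Lair1, 50.2% for Cd200r1, 48.1% for Siglec1 and 66.2% for Pirb. None of the 4 then passed the exact permutation test, with Benjamini-Hochberg adjusted p-values of 0.213 to 0.356. Among Lair1, Cd200r1 and Siglec1, 0 had an unadjusted p under 0.05 by permutation and 1, Siglec1, by limma (p = 0.0480, Benjamini-Hochberg adjusted p = 0.159). Of all 86 loci, 17 had an unadjusted p under 0.05 by permutation and 26 by limma. With 56 splits left, the smallest adjusted p that any locus reached in the permutation test was 0.118.

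The calls also depended on single libraries. Without any 1 of the 14-3-3ζKO libraries, or without wild-type replicate 1 or 4, the exact permutation test called 0 of the 3 receptors. Their Benjamini-Hochberg adjusted p-values were then 0.0506 to 0.0788, although each unadjusted p stayed under 0.05. In the same fits limma called 2 or 3 of them. Siglec1 missed the threshold in limma without 14-3-3ζKO replicate 5 or wild-type replicate 1, 3 or 4 (Benjamini-Hochberg adjusted p = 0.0537 to 0.0585). Without 14-3-3ζKO replicate 1, 2, 4 or 5 the permutation test called 0 of the 86 loci (55 to 68 had an unadjusted p under 0.05), and it called 9 with 14-3-3ζKO replicate 3 left out. The count was 14 with wild-type replicate 1 left out and 17 with wild-type replicate 4 left out. The partner genes called below are subject to the same limit. The log2 differences themselves kept their direction, ranging from -2.66 to -1.97 for Lair1, -2.53 to -1.87 for Cd200r1 and -1.77 to -1.32 for Siglec1.

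The 2 most abundant receptors have a single value per genotype. Lilrb4, which restrains mast cells and myeloid cells and of which fibronectin is a ligand, was at 40.5 FPKM in 14-3-3ζKO and 136 FPKM in wild-type tissue, a log2 difference of -1.73. Its row (chromosome 10, 51200434 to 51216592, plus strand) is shared with Gp49a, a near-identical gene whose product lacks the inhibitory tail, and the value belongs to both. Sirpa (chromosome 2, 129418571 to 129457966, plus strand), the receptor for the anti-phagocytic signal Cd47, was at 26.6 FPKM in 14-3-3ζKO and 109.8 FPKM in wild-type tissue. Of the wild-type group value, 29.7% was left for Lilrb4 and 24.3% for Sirpa. The wild-type group value includes the 3 high wild-type libraries, and these shares cannot be given without them.

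The remaining 4 receptors were low in both genotypes and did not reach 2-fold on the log2 scale with 1 FPKM added. Vsig4, which binds C3 fragments on opsonized particles, was at 2.78 FPKM in 14-3-3ζKO and 6.04 FPKM in wild-type tissue (chromosome X, 93442542 to 93488789, minus strand). Pilra, an ITIM receptor for sialylated glycoproteins, was at 1.76 FPKM in 14-3-3ζKO and 3.96 FPKM in wild-type tissue. Its locus (chromosome 5, 138229026 to 138277506, minus strand) takes in Zcwpw1 on the opposite strand, and because a strand-specific count is not stated, reads of the pair cannot be told apart. Cd33 (chromosome 7, 50779577 to 50788553, minus strand), a sialic acid-binding lectin whose human counterpart carries ITIMs, was at 1.54 FPKM in 14-3-3ζKO and 2.63 FPKM in wild-type tissue. Havcr2, known as TIM-3, a receptor for galectin-9 on T cells and myeloid cells (chromosome 11, 46268352 to 46295951, plus strand), was at 0.730 FPKM in 14-3-3ζKO and 2.06 FPKM in wild-type tissue. The log2 differences were -0.90 for Vsig4, -0.85 for Pilra, -0.82 for Havcr2 and -0.52 for Cd33. As plain ratios, the wild-type value exceeded that of 14-3-3ζKO tissue 2.83-fold for Havcr2, 2.25-fold for Pilra, 2.17-fold for Vsig4 and 1.71-fold for Cd33.

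Most macrophage transcripts were lower together with the receptors. Of 16 macrophage markers that passed the filter, 11 were lower by 2-fold or more and 0 higher, with a median of -2.10. By any amount, 14 of the 16 were lower, and those that were not were Lyve1 and Cd14, with log2 differences of 0.68 and 0.29. Aif1 and Mertk differed little (-0.25 and -0.29). The list, 17 loci in all, summed to 726 FPKM in 14-3-3ζKO and 3877 FPKM in wild-type tissue, and none of its genes was at 0. Emr1 (F4/80), Cd68 and Mpeg1, the markers with usable values per library, together gave 76.6, 96.5, 47.9, 70.3 and 50.8 FPKM in 14-3-3ζKO replicates 1 to 5, against 828.6, 161, 958, 900.5, 130.1 and 83.4 FPKM in wild-type replicates 1 to 6. The same 3 wild-type libraries were thus high in the markers and in the receptors. Relative to the mean of wild-type replicates 2, 5 and 6, the 14-3-3ζKO means were 35.2% for Emr1, 64.3% for Cd68 and 49.3% for Mpeg1. C1qb was left out of this sum because its wild-type libraries averaged 464 FPKM against 359 FPKM deposited for the group.

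Relative to the 3 markers, the genotypes overlapped for each receptor. Lair1 amounted to 0.309% to 3.20% of the marker sum in 14-3-3ζKO libraries (median 2.49%), against 1.51% to 5.01% in wild-type libraries (median 3.16%). Cd200r1 amounted to 0.568% to 4.89% in 14-3-3ζKO libraries (median 2.21%), against 2.30% to 3.34% in wild-type libraries (median 2.91%). Siglec1 amounted to 0.827% to 3.61% in 14-3-3ζKO libraries (median 2.08%), against 1.05% to 2.89% in wild-type libraries (median 1.98%). The 14-3-3ζKO libraries were spread more widely than the wild-type libraries for Cd200r1 and Siglec1, but not for Lair1. Pirb amounted to 3.52% to 15.1% in 14-3-3ζKO libraries (median 9.99%), against 5.52% to 10.7% in wild-type libraries (median 6.97%). 14-3-3ζKO replicate 1 was the lowest of the 11 libraries in all 4 ratios. The choice of marker turned the order of the medians for Lair1, Cd200r1 and Siglec1. As a share of Emr1 alone, Lair1 had a median of 20.4% in 14-3-3ζKO and 16.8% in wild-type libraries, and Cd200r1 one of 21.9% in 14-3-3ζKO and 15.6% in wild-type libraries. With Emr1 the order of the medians for Siglec1 and Pirb was the same as with the sum, at 20.9% in 14-3-3ζKO and 10.98% in wild-type libraries for Siglec1. As a share of Cd68 alone, however, Siglec1 had a median of 3.53% in 14-3-3ζKO and 3.74% in wild-type libraries. The wild-type ranges and medians include replicates 1, 3 and 4. In wild-type replicates 2, 5 and 6 the shares of the marker sum were 5.01%, 1.51% and 3.63% for Lair1 and 2.61%, 3.09% and 2.30% for Cd200r1. They were 2.26%, 2.89% and 2.87% for Siglec1 and 7.43%, 10.7% and 6.91% for Pirb. All these ratios were chosen after the values were seen and carry no test.

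**Figure D3:**
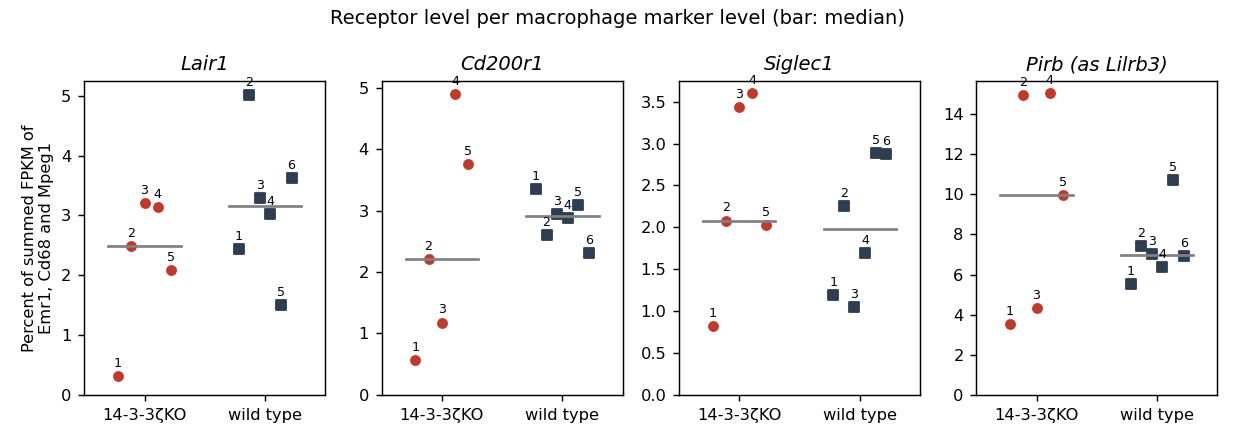
FPKM of each receptor as a percentage of the summed FPKM of Emr1, Cd68 and Mpeg1 in the same library, with 14-3-3ζKO circles left of wild-type squares, replicate numbers beside the points and bars for the median. In all 4 panels the genotypes overlap, and 14-3-3ζKO replicate 1 is the lowest library.

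Other cell types were examined through their markers, whose part in the receptor values was not tested. Mast cell markers were lower past 2-fold in 6 of 7 cases, with a median of -2.57 and sums of 22.9 FPKM in 14-3-3ζKO and 136 FPKM in wild-type tissue. The mast cell markers with values per library, Cma1 and Tpsb2, missed the exact permutation test (Benjamini-Hochberg adjusted p = 0.138 for Cma1 and 0.115 for Tpsb2), and their 14-3-3ζKO means were 108% and 97.7% of the mean of wild-type replicates 2, 5 and 6. Neutrophil markers were higher in 2 of 4 cases (Retnlg and S100a9, median 1.24, sums of 71.8 FPKM in 14-3-3ζKO and 36.8 FPKM in wild-type tissue). The other 2 that passed the filter, S100a8 and Csf3r, had log2 differences of 0.39 and -0.68. Ly6g, Ngp, Cxcr2 and Camp were below the filter. Cxcr2 was at 0.145 FPKM in 14-3-3ζKO and 0.129 FPKM in wild-type tissue, and Camp at 0.106 FPKM in 14-3-3ζKO and 0.129 FPKM in wild-type tissue. Ly6g was at 0 FPKM in 14-3-3ζKO and 0.0756 FPKM in wild-type tissue, and Ngp at 0.693 FPKM in 14-3-3ζKO and 0.00704 FPKM in wild-type tissue. B cell markers were higher in 4 of 6 (median 1.02). Dendritic cell markers were past 2-fold in 0 of 5 (median -0.01), with sums of 17.8 FPKM in 14-3-3ζKO and 17.9 FPKM in wild-type tissue. Of the T and NK cell markers 1 of 7, Klrb1c, was lower past 2-fold (median -0.04). Epididymal markers were lower past 2-fold in 3 of 6 (median -1.01), adipocyte markers were lower in 1 of 8 (Lep) and higher in 2 of 8 (Fabp4 and Retn, median 0.23), and housekeeping genes were past 2-fold in 0 of 8 (median -0.01). Among all loci, 4.31% were past 2-fold lower and 9.67% past 2-fold higher.

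The list of activating counterparts and their adaptors was mostly lower too. Besides close relatives of the receptors it holds Trem2 and the signalling genes Tyrobp, Fcer1g, Hcst and Syk. Of 11 genes of this list that passed the filter, 6 were lower by 2-fold or more and 0 higher, with a median of -1.15. Trem2, a lipid-sensing receptor that signals through Tyrobp, was at 9.92 to 26.01 FPKM in 14-3-3ζKO libraries, against 20.2 to 391.7 FPKM in wild-type libraries, and had a log2 difference of -2.78 ± 0.79 (SE, Benjamini-Hochberg adjusted p = 0.0407, exact permutation test). Tyrobp (DAP12), the adaptor with an activating motif, was at 40.2 to 99.3 FPKM in 14-3-3ζKO libraries, against 78.6 to 911 FPKM in wild-type libraries, and had one of -2.21 ± 0.66 (SE, Benjamini-Hochberg adjusted p = 0.0447, exact permutation test). Both overlapped between the genotypes, and in both the 3 high wild-type libraries were again those numbered 1, 3 and 4. The 14-3-3ζKO mean of Trem2 was 8.39% of the mean of all wild-type libraries but 41.3% of that of replicates 2, 5 and 6, and for Tyrobp these shares were 15.3% and 53.4%. Fcer1g, the adaptor used by the Pira receptors, was at 78.9 FPKM in 14-3-3ζKO and 262 FPKM in wild-type tissue. Low-level relatives of single receptors lay in the same direction, with log2 differences of -1.67 for Cd200r4, -1.27 for Sirpb1c, -1.15 for Pira2, -0.80 for Pilrb1 and -0.73 for Pilrb2. Lilra6 was the exception at 0.30. These genes resemble Cd200r1, Sirpa, Pirb and Pilra closely enough that reads may have been divided among them.

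Transcripts of the proteins that carry the inhibitory signal were lower in part. Across 16 signalling genes, 8 were lower by 2-fold or more and 0 higher, with a median of -0.93. Ptpn6, the SHP-1 phosphatase of blood cells, was at 9.36 FPKM in 14-3-3ζKO and 27.7 FPKM in wild-type tissue, whereas Ptpn11, its widely expressed relative SHP-2, was at 32.2 FPKM in 14-3-3ζKO and 34.9 FPKM in wild-type tissue. Inpp5d, the SHIP-1 inositol phosphatase, had a log2 difference of -0.83. Fyb, a leukocyte adaptor that associates with Sirpa, was at 5.20 FPKM in 14-3-3ζKO and 21.3 FPKM in wild-type tissue. The Cd200r1 route was also lower, with log2 differences of -1.34 for Dok2, -1.13 for Dok1 and -1.13 for Rasa1. Lyn and Csk, a kinase that phosphorylates ITIMs and the kinase that holds Src kinases in check, had log2 differences of -1.08 and -1.02. Bag6, a partner of Havcr2 and the most abundant gene of the list, was at 58.7 FPKM in 14-3-3ζKO and 44.3 FPKM in wild-type tissue.

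The ligands were mixed. Of 18 that passed the filter, 5 were lower and 1 higher by 2-fold or more, with a median of -0.59. Collagens, which bind Lair1, were among the lower ones. Col1a1 was at 1.65, 9.58, 10.7, 14.5 and 14.9 FPKM in 14-3-3ζKO replicates 1 to 5, against 105.2, 13.5, 63.3, 109.1, 48.0 and 21.1 FPKM in wild-type replicates 1 to 6, and fell by 2.32 ± 0.68 on the log2 scale (SE, Benjamini-Hochberg adjusted p = 0.0407, exact permutation test). Its lowest library was again 14-3-3ζKO replicate 1, and wild-type replicate 2 lay within the 14-3-3ζKO range. The 14-3-3ζKO mean of Col1a1 was 17.1% of the mean of all wild-type libraries and 37.3% of that of replicates 2, 5 and 6. Col3a1 was at 40.2 FPKM in 14-3-3ζKO and 174 FPKM in wild-type tissue, and C1qa, part of another ligand of Lair1, at 99.1 FPKM in 14-3-3ζKO and 395 FPKM in wild-type tissue. Cd200, the ligand of Cd200r1, was the gene of the list that was higher, at 83.9 FPKM in 14-3-3ζKO and 27.2 FPKM in wild-type tissue, a log2 difference of 1.59. For this pair the receptor was thus lower and the ligand higher in the same tissue. Cd47, the ligand of Sirpa, differed little, at 91.1 FPKM in 14-3-3ζKO and 79.1 FPKM in wild-type tissue. The log2 difference was -0.25 for Lgals9, the galectin-9 ligand of Havcr2, and -0.64 for C3, the precursor of the Vsig4 ligands. It was -1.54 for Fn1 (fibronectin). B2m, the light chain of MHC class I, had a log2 difference of -0.64 in a row shared with Trim69, and the class I heavy chain H2-D1 one of -0.57. H2-K1, a further class I heavy chain, differed little, at 695 FPKM in 14-3-3ζKO and 715 FPKM in wild-type tissue (log2 difference -0.04).

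Transcripts of the enzymes that make and attach sialic acid, the ligand of Siglec1 and Cd33, had a median close to that of all loci. Of 15, 3 were lower by 2-fold or more and 0 higher, with a median of -0.04. St8sia4, which builds polysialic acid, had a log2 difference of -1.32, and the sialyltransferases St6galnac4 (in a row with St6galnac6) and St3gal2 had differences of -1.19 and -1.06. St6gal1, the most abundant, was at 76.9 FPKM in 14-3-3ζKO and 80.2 FPKM in wild-type tissue.

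Inhibitory receptors outside the 10 did not share one direction. Of 19 that passed the filter, 5 were lower and 1 higher by 2-fold or more, with a median of -0.21. The lower ones included myeloid genes. Clec12a, an ITIM-bearing lectin, was at 0.381 to 9.24 FPKM in 14-3-3ζKO libraries, against 6.58 to 103 FPKM in wild-type libraries, and fell by 2.90 ± 0.84 on the log2 scale (SE, Benjamini-Hochberg adjusted p = 0.0407, exact permutation test). Clec4a2, another ITIM-bearing lectin, was at 2.77 to 13.3 FPKM in 14-3-3ζKO libraries, against 9.26 to 89.3 FPKM in wild-type libraries, and fell by 2.23 ± 0.70 on the log2 scale (SE, Benjamini-Hochberg adjusted p = 0.0447, exact permutation test). Wild-type replicates 1, 3 and 4 were the highest libraries for both lectins. The 14-3-3ζKO means were 8.26% of the wild-type mean for Clec12a and 14.6% for Clec4a2, against 39.6% and 55.2% of the mean of wild-type replicates 2, 5 and 6. Ly9, Cd300a and 4632428N05Rik, the last encoding VISTA, had log2 differences of -2.32, -2.06 and -1.97. Ctla4, a receptor of T cells, was higher, at 2.50 FPKM in 14-3-3ζKO and 0.536 FPKM in wild-type tissue. Cd300lf, a relative of Cd300a, was higher as well, at 256.5% of its low wild-type value. Its log2 difference of 0.66 did not reach 2-fold on the scale with 1 FPKM added. By any amount, 10 of the 19 were lower. Whether the direction followed the cell type was not tested. The most abundant of these receptors were Pecam1, mainly endothelial, with a log2 difference of 0.22, and Fcgr2b, the inhibitory Fc receptor, with one of -0.50.

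**Figure D4:**
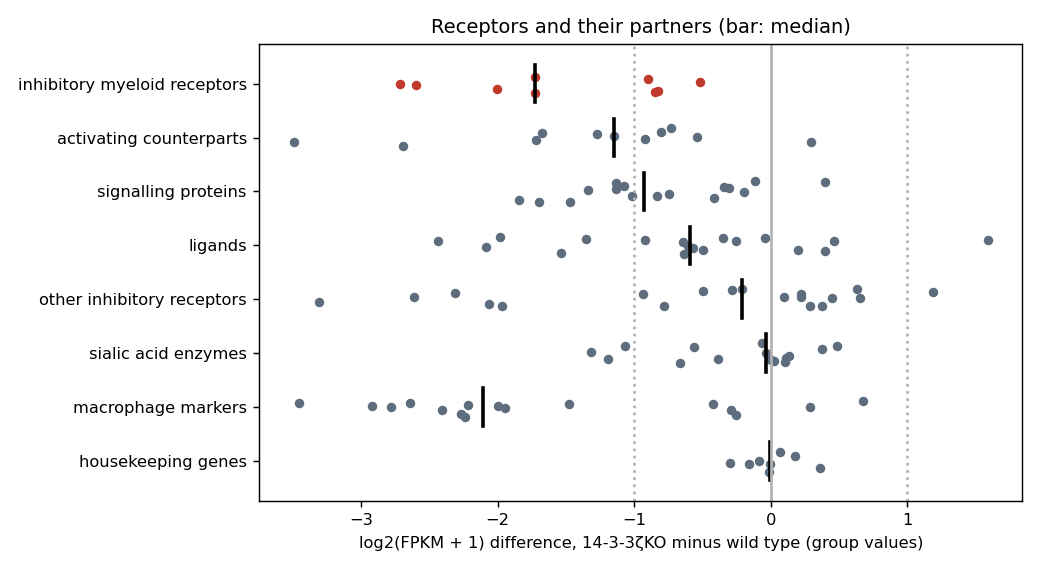
Difference of log2(FPKM + 1), 14-3-3ζKO minus wild type, from the group values, with 1 point per gene that passed the filter, bars for the median of each list and dotted lines at 2-fold. The 9 receptors found by symbol lie between -2.72 and -0.52 with a median of -1.72, beside medians of -1.15 for activating counterparts with their adaptors, -0.59 for ligands, -0.21 for other inhibitory receptors, -2.10 for macrophage markers and -0.01 for housekeeping genes.

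Across the 11 libraries the 4 receptors with values per library varied together. Pearson's r of log2(FPKM + 1) lay between 0.91 for Pirb with Lair1 and 0.97 for Pirb with Cd200r1. Without wild-type replicates 1, 3 and 4 it lay between 0.61 and 0.90 for the same pairs, over 8 libraries. These values describe shared libraries and include the genotype difference, so they carry no test. Nor were they particular to the receptors. Wild-type replicates 1, 3 and 4 were the highest in 74.4% of the 86 loci, and no receptor was among the 5 loci most like another receptor. Among the 86 loci, the profile most like that of Pirb was Ptprc, the pan-leukocyte phosphatase CD45 (r = 0.99), followed by Cd300ld, Itgb2, Itgax and Arhgap25. That of Cd200r1 was C3ar1, the receptor for complement C3a (r = 0.99), followed by Cd300ld, Cd300lb, Apobec1 and S1pr2. For Siglec1 it was Clec4a3, a C-type lectin (r = 0.98), followed by Emr1, Il1rn, Slc37a2 and Clec12a. For Lair1 it was Ms4a7, a membrane protein of macrophages (r = 0.98), followed by Zranb3, Trem2, Slc37a2 and the locus of AF251705 and Gm11709. Without the 3 high wild-type libraries these leading correlations were 0.98 for Pirb, 0.97 for Cd200r1, 0.95 for Siglec1 and 0.91 for Lair1.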

How the data were processed

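RNA of gonadal white adipose tissue from 5 14-3-3ζKO and 6 wild-type samples was sequenced. According to the study's methods and the submitters' processing notes, reads were aligned with TopHat2 2.0.11 to NCBIM37 and transcripts were quantified with Cufflinks 2.2.0 and Cuffdiff. No source used here states how the libraries were scaled against one another. The authors deposited FPKM as 1 value per genotype for 42815 loci and per library for 86 loci, which are the loci the authors marked as significant. The authors' own fold changes, test statistic, p-values and q-values stand beside these values. They were not used, and the mark of significance was read only to identify the 86 loci.

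The receptors and gene lists were chosen with earlier results of these data known. Group values were compared as log2(FPKM + 1) among loci with a mean of at least 1 FPKM. A symbol with several rows was represented by the row of highest mean. Values per library were compared on the same scale with an exact permutation test, two-sided, on the mean difference over 462 splits (smallest p 0.00216), with Benjamini-Hochberg adjustment over the 86 loci and a threshold of 0.05, or by limma (limma 3.58.1, R 4.3.3, python 3.11.15 with numpy 2.4.6, pandas 2.3.3, scipy 1.17.1 and matplotlib 3.10.9). Both tests were tested on simulated data with independent loci and a smaller spread within groups than that of the receptors. That does not show how they perform on these libraries. Except for C1qb, library means matched the deposited group values to a relative difference of at most 5.21e-06.

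Named genes were the receptors, Ywhaz, in each list the members with values per library, the 3 largest falls and 3 largest rises past 2-fold and the 2 highest, and for each receptor the 5 loci of most similar profile. Further partners of a receptor, close relatives and markers were named after their values were seen, and some genes the rule gives were left out for the cell type lists. Of the signalling list, 1 gene the rule gives is not reported here. Alternatives were other pseudocounts, filters and fold thresholds, recentring, summed rows, the Lilrb3 row (added after seeing the data), limma, the replicate number as a block, each library left out, and wild-type replicates 1, 3 and 4 left out. A search of the receptor proteins for ITIMs was not run. Loci are 1-based.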

Additional observations from a re-analysis of the deposited data

How the results depend on the processing

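Of the 9 receptors found by symbol, 5 were lower by 2-fold or more, against 4.31% of all loci, and this was 8 with a pseudocount of 0.1 FPKM (5.94% of all loci), 8 with none (6.26%), 8 at 1.5-fold (10.5%) and 3 at 4-fold (0.971%). It stayed at 5 without a filter, after recentring by the median of all loci (0.04) and with rows of a symbol summed, and was 4 of 4 above a mean of 5 FPKM and 6 of 10 with the Lilrb3 row. The median stayed between -2.30 and -1.72. Of the 86 loci 56 passed the exact permutation test, against 65 with a pseudocount of 0.1, 74 in limma and 0 (17 at an unadjusted p under 0.05) without wild-type replicates 1, 3 and 4, where limma called 5. Over single libraries left out, the permutation test called 0 to 75 loci and 0 to 3 receptors, and limma 48 to 81 loci and 2 to 3 receptors. The log2 difference then ran from -2.66 to -1.97 for Lair1, -2.53 to -1.87 for Cd200r1, -1.77 to -1.32 for Siglec1 and -2.30 to -1.63 for Pirb. With 1 library left out, limma lost Siglec1 without wild-type replicate 1 (-1.43), 3 (-1.43) or 4 (-1.32) or 14-3-3ζKO replicate 5 (-1.48). It kept Pirb past the threshold without wild-type replicate 2 (-2.11), 5 (-2.07) or 6 (-2.30) or 14-3-3ζKO replicate 2 (-2.23), 4 (-2.13) or 5 (-1.90). Without wild-type replicates 1, 3 and 4, 0 receptors passed either test, with differences of -1.02 for Lair1, -0.78 for Cd200r1, -0.77 for Siglec1 and -0.73 for Pirb. Fewer splits are possible there, and the further cause was not tested. Pirb passed with a pseudocount of 0.1 (-2.11), above a mean of 5 FPKM (-1.93, fewer loci tested) and in limma (-1.93). The deviations of same-numbered samples from their group means correlated with r from -0.49 to 0.57, over 0.1 in 1 of 5 pairs. The 86 loci used for this had been picked from a comparison of the genotypes, so it cannot decide whether the numbers pair samples. With the replicate block in limma, 80 loci and 3 receptors passed, the differences were -2.57 for Lair1, -2.53 for Cd200r1, -1.77 for Siglec1 and -2.30 for Pirb, and 0 of 5 samples correlated best with their own number. Wild-type replicate 6 has no 14-3-3ζKO sample of its number, so it adds nothing to the block differences. They equal those with this library left out. Library depth is unknown, so no counting interval can be given for the receptors near 1 FPKM.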
